A study of Mus musculus with 6 samples.

Results

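Inflammasomes and the necrosome are protein assemblies that turn the sensing of infection or damage into lytic cell death and cytokine release. NLRP3 is a cytosolic sensor that recruits the adaptor ASC, encoded by Pycard, which brings caspase-1 together for activation. Caspase-1 matures IL-1 beta and IL-18 and cleaves gasdermin D, whose N-terminal part forms pores in the plasma membrane, and caspase-4, also known as caspase-11 in the mouse, cleaves gasdermin D after binding cytosolic lipopolysaccharide. In necroptosis the kinase RIPK1 engages RIPK3 through their RHIM domains, RIPK3 phosphorylates MLKL, and MLKL permeabilises the membrane, while active caspase-8 cuts both kinases and holds the pathway back. The 9 genes described here are Nlrp3, Pycard, Casp1, Casp4, Gsdmd, Casp8, Ripk1, Ripk3 and Mlkl. A gene was measured by a probe set annotated to its symbol alone, or, where it had several, by the one whose mean over the 6 arrays was highest. This gave 8 of the 9 genes, among 22180 genes in all. No probe set was annotated to Ripk1 alone in the annotation used here, and Ripk1 was not analysed here.

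Raw 264.7 is a mouse monocyte and macrophage cell line, and all 6 arrays hold its RNA after starvation. The group labelled IL-33 (3 arrays) received the alarmin cytokine IL-33 at 50 ng/ml in medium with 2% serum, and the group labelled PBS (3 arrays) received the same medium without it. The sources used here do not give the duration of the treatment. They do not say whether replicates are separate cultures either, and the p-values then describe only how these samples vary, possibly for technical reasons. Directions follow the sample titles, but the array names in the sample descriptions carry the letters IL on arrays titled PBS and the letter P on arrays titled IL-33, so every direction would turn if the titles were exchanged. All values are log2 expression values, in which a difference of 1 is a doubling, and values of different probe sets are not comparable as levels.

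None of the 8 measured genes passed the test between IL-33 and PBS. They were fitted with all other genes by limma, and a gene passed at a Benjamini-Hochberg adjusted p under 0.05. Of all 22180 genes, 0.591% passed. Mlkl and Gsdmd had the largest differences, each 1.13-fold higher in the IL-33 arrays as a point estimate. At an unadjusted p under 0.05 the same limma fit gave 2 of the 8 genes, Mlkl and Gsdmd, where 13.2% of all genes reached it. The 95% intervals of the 8 differences lay between 0.874-fold and 1.27-fold.

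The IL-33 and PBS values did not overlap in 3 of the 8 genes, with Mlkl and Casp1 higher and Nlrp3 lower in IL-33. The same was true of 20.3% of all genes, with 10.3% higher and 10.1% lower in IL-33. An exact two-sided permutation test over the arrays gave p = 0.1 for these 3 genes, the smallest that 3 against 3 arrays allow. Differences of 6 genes lay above 0 and of 2 below 0, where 10629 of all 22180 genes lay above 0 and 11551 below. The median of the 8 differences was 0.07, against -0.01 over all genes tested. A gene of this group would have needed a log2 difference of 0.33 to 0.50 at its own standard error, a change of 1.25-fold to 1.41-fold, to reach the largest p that passed.

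**Figure D1:**
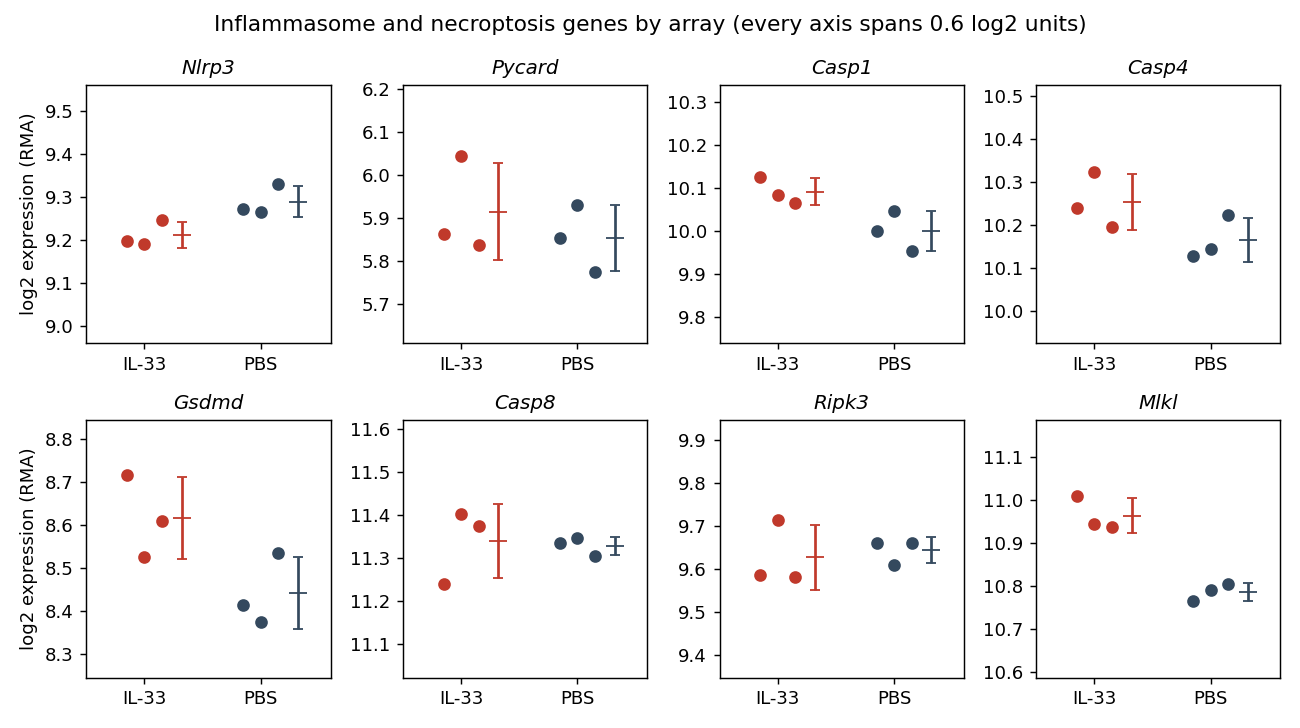
Log2 expression (RMA) of the 8 measured genes in each array, with IL-33 arrays in red on the left and PBS arrays in dark blue on the right of each panel. Points are arrays, bars are the mean ± SD of 3 arrays, and every vertical axis spans the same log2 range, so the separation of Mlkl and the overlap in Casp8 can be read on 1 scale.

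The sensor gene Nlrp3, whose transcription is known to be induced by NF-kB in macrophages, had slightly lower values in IL-33. Its log2 values were 9.20, 9.19 and 9.25 in the IL-33 arrays, against 9.27, 9.26 and 9.33 in the PBS arrays. Each IL-33 value lay under each PBS value, although the highest IL-33 and the lowest PBS array were nearly level. The difference was -0.08 ± 0.05 (log2, SE, n = 3 each) with a 95% interval of -0.19 to 0.04 and an adjusted p of 0.571 (limma).

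Pycard encodes ASC, and Raw 264.7 cells are known for lacking ASC protein. Log2 values of Pycard were 5.86, 6.04 and 5.84 in the IL-33 arrays, against 5.85, 5.93 and 5.78 in the PBS arrays. The groups overlapped, and IL-33 replicate 2 stood highest. The difference was 0.06 ± 0.07 (log2, SE, n = 3 each) with an adjusted p of 0.788 (limma), and it was -0.0030 without IL-33 replicate 2. The deposited values carry no detection call, so they do not say whether the transcript was present.

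Casp1 and Casp4 lie next to each other on chromosome 9 and encode the inflammatory caspases. Casp1 had log2 values of 10.12, 10.08 and 10.06 in the IL-33 arrays, against 10.00, 10.05 and 9.95 in the PBS arrays. All IL-33 values of Casp1 were above all PBS values, by little at the nearest pair. Its difference was 0.09 ± 0.05 (log2, SE, n = 3 each), with a 95% interval of -0.03 to 0.21 and an adjusted p of 0.504 (limma).

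Casp4, the sensor of intracellular lipopolysaccharide, had log2 values of 10.24, 10.32 and 10.20 in the IL-33 arrays, against 10.13, 10.14 and 10.22 in the PBS arrays. PBS replicate 3 lay above IL-33 replicate 3, so the groups overlapped. The difference was 0.09 ± 0.06 (log2, SE, n = 3 each) with an adjusted p of 0.582 (limma).

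Gsdmd encodes the pore-forming gasdermin D. The chosen probe set had log2 values of 8.72, 8.53 and 8.61 in the IL-33 arrays, against 8.42, 8.37 and 8.54 in the PBS arrays. The values overlapped, since PBS replicate 3 was just above IL-33 replicate 2. The difference was 0.18 ± 0.07 (log2, SE, n = 3 each) with a 95% interval of 0.01 to 0.34 and an adjusted p of 0.358 (limma). A further probe set of Gsdmd had values of 5.82, 6.20 and 5.91 in the IL-33 arrays, against 5.89, 5.73 and 5.91 in the PBS arrays. It differed in the same direction, by 0.13 ± 0.11 (log2, SE, n = 3 each), with IL-33 replicate 2 highest there and lowest of its group in the chosen probe set.

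**Figure D2:**
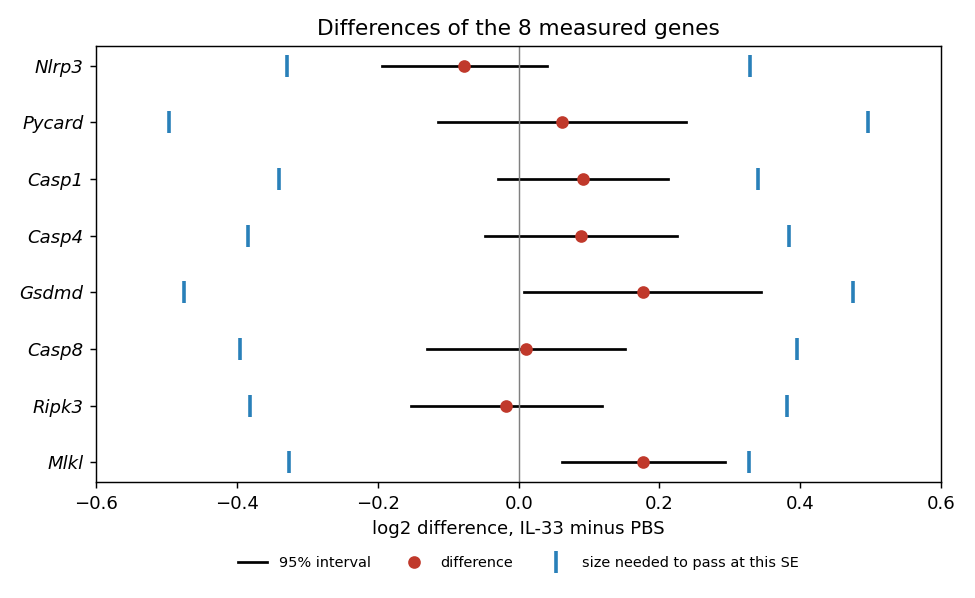
Log2 difference (IL-33 minus PBS) of each measured gene with its 95% interval from the limma fit over all genes, and blue ticks at the size the gene would have needed to pass at its own standard error. Every point lies inside its ticks, and the intervals of Mlkl and Gsdmd lie above 0.

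Casp8 encodes the protease that starts death receptor apoptosis and restrains necroptosis. Its log2 values were 11.24, 11.40 and 11.38 in the IL-33 arrays, against 11.34, 11.35 and 11.31 in the PBS arrays. The PBS values fell within the range of the IL-33 values. The difference was 0.01 ± 0.06 (log2, SE, n = 3 each), with a 95% interval of -0.13 to 0.15 and an adjusted p of 0.962 (limma). Its sign is not settled, since it was -0.00030 after a further quantile normalization.

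Ripk3 encodes the necrosome kinase and had log2 values of 9.59, 9.71 and 9.58 in the IL-33 arrays, against 9.66, 9.61 and 9.66 in the PBS arrays. The groups overlapped, with IL-33 replicate 2 above all PBS arrays and the other IL-33 arrays below them. The difference was -0.02 ± 0.06 (log2, SE, n = 3 each), with a 95% interval of -0.15 to 0.12 and an adjusted p of 0.932 (limma), and it was above 0, at 0.0031 and 0.0056, without IL-33 replicates 1 and 3.

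Mlkl, the membrane-disrupting effector of necroptosis, had the smallest p of the 8 genes and stood at rank 980 of all genes by p. Its log2 values were 11.01, 10.94 and 10.94 in the IL-33 arrays, against 10.76, 10.79 and 10.81 in the PBS arrays. Every IL-33 array was above every PBS array, and the gap between the groups was wider than the range within either. Mlkl averaged 10.96 ± 0.04 in IL-33 and 10.79 ± 0.02 in PBS (log2, SD, n = 3 each). The difference was 0.18 ± 0.05 (log2, SE), 1.13-fold with a 95% interval of 1.04-fold to 1.23-fold, and the adjusted p was 0.194 (limma). Over the 15 alternatives the adjusted p ran from 0.00852 to 0.411 and passed in 2 of them, with a trended and robust prior variance (0.00852) and with the dimmer 50% of genes left out (0.0440).

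The 3 genes whose values over the 6 arrays were most like those of Mlkl, among 17657 with an official symbol, were Ifit3b, Sp110 and Rtp4. Their Pearson correlations with Mlkl were 0.9985, 0.9959 and 0.9949 over 6 arrays that fall into 2 groups and share 1 normalization, and they describe these arrays only. Ifit3b is a member of the interferon-induced IFIT family with near-identical copies whose signal the probe set may share. Log2 values of Ifit3b were 5.55, 5.46 and 5.46 in the IL-33 arrays, against 5.18, 5.22 and 5.24 in the PBS arrays. These values lay near the array medians of 5.31 to 5.36, and no detection call says whether the transcript was present. Sp110 encodes a nuclear body protein, and both Sp110 and Rtp4 are known to be interferon-induced. Their log2 differences were 0.27, 0.25 and 0.24, with adjusted p of 0.0866, 0.101 and 0.110 (limma), so none of the 3 passed either.

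**Figure D3:**
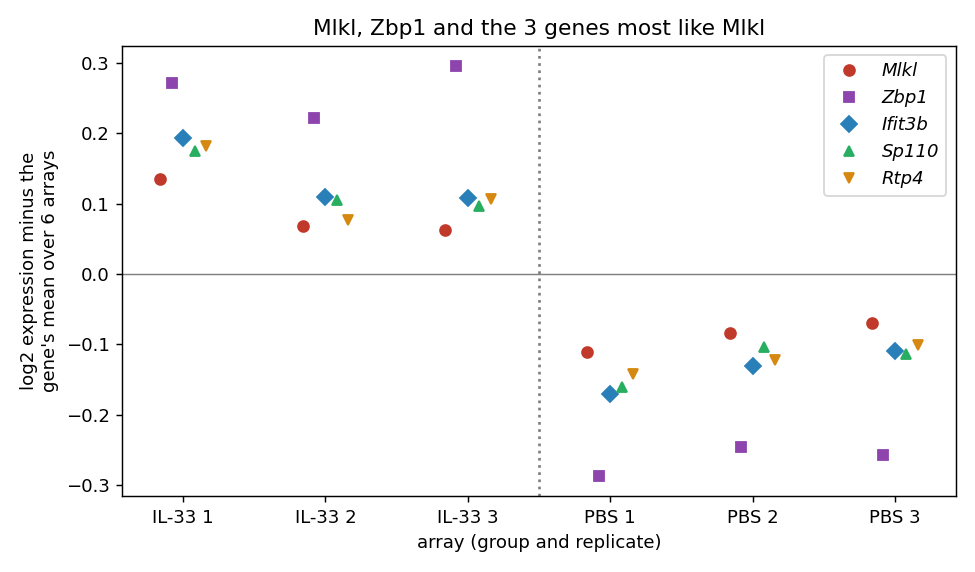
Log2 expression of Mlkl, of the nucleic acid sensor gene Zbp1 and of the 3 genes most like Mlkl in each array, as the deviation from each gene's mean over 6 arrays, with IL-33 arrays left of the dotted line and PBS arrays right of it. All 5 genes are above their mean in the 3 IL-33 arrays and below it in the 3 PBS arrays. IL-33 replicate 1 is the highest array for Mlkl and the 3 genes most like it. Those 3 were picked for their correlation with Mlkl over these same arrays, so their likeness to it follows from the choice.

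The promoters of Mlkl and Ifit3b are shown because these genes had nearly the same profile over the arrays. Of the 9 listed genes, 8 had a promoter entry, all but Gsdmd. That of Casp4 is shown because it was the only one of these 8 in which the NF-kB letters were found. Each holds 250 bases before and 50 after a RefSeq start site (GRCm38.p6), 5′ to 3′ on the gene's strand, in lower case with capitals for a match to any searched motif. Mlkl lies at chr8:111338156-111338455 (minus strand), Ifit3b at chr19:34607707-34608006 (plus strand) and Casp4 at chr9:5308599-5308898 (plus strand).
Mlkl: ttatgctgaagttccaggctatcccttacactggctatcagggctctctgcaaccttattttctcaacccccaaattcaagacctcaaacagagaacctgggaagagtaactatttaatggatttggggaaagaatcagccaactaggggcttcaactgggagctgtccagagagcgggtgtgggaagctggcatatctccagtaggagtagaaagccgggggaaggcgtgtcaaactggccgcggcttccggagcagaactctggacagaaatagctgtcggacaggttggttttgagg
Ifit3b: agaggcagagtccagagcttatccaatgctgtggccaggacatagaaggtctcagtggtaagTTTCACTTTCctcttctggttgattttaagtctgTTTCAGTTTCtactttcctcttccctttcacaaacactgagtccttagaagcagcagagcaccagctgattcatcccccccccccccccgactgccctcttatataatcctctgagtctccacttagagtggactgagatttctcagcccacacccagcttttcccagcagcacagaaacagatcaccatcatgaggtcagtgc
Casp4: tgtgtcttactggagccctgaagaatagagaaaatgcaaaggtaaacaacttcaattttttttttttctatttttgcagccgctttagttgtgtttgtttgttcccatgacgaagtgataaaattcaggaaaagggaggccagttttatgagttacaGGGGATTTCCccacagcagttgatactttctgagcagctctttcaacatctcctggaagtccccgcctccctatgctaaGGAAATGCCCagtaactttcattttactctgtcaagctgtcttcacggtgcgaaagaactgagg

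The motifs, searched on both strands, were 2 copies of GAAA with 2 free bases between them, the core of the interferon-stimulated response element, TTC and GAA with 3 free bases between them, the core of the gamma-activated site, and GGG and TTTCC with 2 free bases between them, an NF-kB core. Of 32851 promoters of this length, 3.44% held the first, 8.3% the second and 1.63% the third. The Mlkl promoter held none of them. The Ifit3b promoter held the interferon motif at 2 places, TTTCACTTTC and TTTCAGTTTC on the minus strand, starting at -188 and -154 from the start site. The Casp4 promoter shown held the NF-kB letters at 2 places that do not overlap, GGGGATTTCC at -93 and GGAAATGCCC, a match on the minus strand, at -14. In the other Casp4 promoter, at chr9:5308610-5308909, the same matches lay at -104 and -25 from its start site. The promoters of Nlrp3, Pycard, Casp1, Casp8 and Ripk3 held none of the 3 motifs, nor did either promoter of Sp110. Gsdmd, Zbp1 and Rtp4 had no promoter entry in the sources used here and were not searched. Of 2 promoters of Ripk1, whose expression was not analysed here, 1 held none and the other held the interferon motif at -5 and the gamma-activated motif at -108 and -11, the last of which overlaps the interferon motif. A match is a string of letters, not a measured site, and a missing match says only that these letters were not in the window.

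No single order of the replicates held for all 8 genes. IL-33 replicate 2 was the highest array of its group for Pycard, Casp4, Casp8 and Ripk3 and the lowest for Nlrp3 and Gsdmd. IL-33 replicate 3 was the lowest for Pycard, Casp1, Casp4, Ripk3 and Mlkl and the highest for Nlrp3. PBS replicate 3 was the highest of its group for Nlrp3, Casp4, Gsdmd and Mlkl and the lowest for Pycard, Casp1 and Casp8. The SD was larger in IL-33 than in PBS for 6 of the 8 genes, where 51.8% of all genes had the larger SD in IL-33. Standard errors of the differences ran from 0.049 for Mlkl to 0.075 for Pycard.

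Other genes of the same pathways were read from the same fit, as 5 lists of 91 genes, of which 84 were measured and 7 were not analysed here. Of these 84, 1 rose, the RHIM sensor gene Zbp1, and 2 fell, the cytokine genes Il1a and Il1b. Over all genes, 0.275% passed higher in IL-33 and 0.316% lower. Groups did not overlap for 32 of the 84, against 20.3% of all genes.

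Zbp1 belongs to the list of RHIM partners, necroptosis inducers and membrane repair genes, and its product recruits RIPK3 through a RHIM after sensing nucleic acid. Zbp1 had log2 values of 10.78, 10.73 and 10.81 in the IL-33 arrays, against 10.22, 10.27 and 10.25 in the PBS arrays. The groups stood far apart relative to their spread. Zbp1 rose 1.44-fold, by 0.53 ± 0.05 (log2, SE, n = 3 each), with an adjusted p of 0.0133 (limma). It still passed without IL-33 replicate 1, at an adjusted p of 0.0389, and did not pass without any of the other 5 arrays, where adjusted p ran from 0.0548 to 0.0811 and the log2 difference from 0.51 to 0.55. The remaining 13 measured genes of this list did not pass. The list's median difference was 0.05, with 9 of 14 differences above 0, against 10629 of 22180 over all genes. Groups did not overlap for 11 of its 14 genes, 8 higher and 3 lower in IL-33. Over all genes 20.3% did not overlap, 10.3% higher and 10.1% lower. The list was chosen with earlier results of these data known. Tlr3, a receptor for double-stranded RNA, chosen after its values were seen, differed by 0.40 ± 0.07 (log2, SE, n = 3 each) with an adjusted p of 0.0666 (limma), and a prior variance that is trended and robust made it pass.

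**Figure D4:**
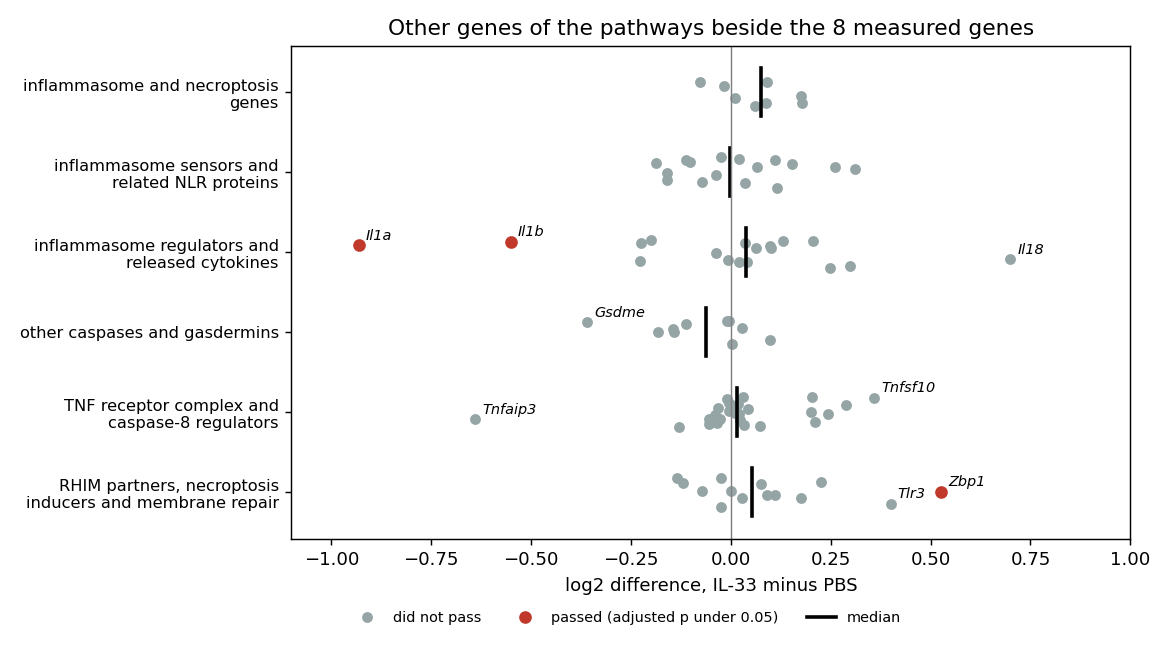
Log2 differences (IL-33 minus PBS) of the 8 measured genes and of 84 other genes of the pathways in 5 lists, with genes that passed in red, genes that did not in grey and a black line at each list's median. Names stand beside genes whose difference exceeded 0.35 in either direction, and the 8 genes in the top row keep within 0.18 of 0.

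Among 18 measured inflammasome regulators and released cytokines, 2 fell and 16 did not pass in either direction; the median difference was 0.04. Il1b, the cytokine gene whose product caspase-1 matures, had log2 values of 8.83, 8.75 and 8.73 in the IL-33 arrays, against 9.28, 9.44 and 9.24 in the PBS arrays. It was lower in every IL-33 array and fell by 0.55 ± 0.07 (log2, SE, n = 3 each), with an adjusted p of 0.0285 (limma). Il1a, whose product needs no caspase-1 cleavage to be active, had log2 values of 9.25, 9.35 and 9.03 in the IL-33 arrays, against 10.16, 10.26 and 10.00 in the PBS arrays. It fell by 0.93 ± 0.10 (log2, SE, n = 3 each), with an adjusted p of 0.0183 (limma). Neither passed when any 1 of the 6 arrays was left out, with adjusted p of 0.0520 to 0.110 for Il1a and of 0.0602 to 0.153 for Il1b, while their log2 differences stayed at or below -0.84 and -0.49.

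Il18, the other cytokine gene whose product caspase-1 matures, is named after its values were seen. Its log2 values were 8.47, 8.49 and 8.74 in the IL-33 arrays, against 7.66, 7.95 and 7.98 in the PBS arrays. The groups did not overlap, and the difference ran opposite to that of Il1b, at 0.70 ± 0.11 (log2, SE, n = 3 each). Its adjusted p was 0.0574 (limma), so Il18 did not pass, and it did pass with the trended and robust prior variance. Il1rn, which encodes the IL-1 receptor antagonist and is also named with its values known, differed by -0.23 ± 0.05 (log2, SE, n = 3 each) with an adjusted p of 0.101 (limma), and it too passed with that prior variance.

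The other 3 lists held no gene that passed. Of 16 inflammasome sensors and related NLR proteins, 8 differences lay above 0 and 8 below, with a median of -0.0020. The smallest p belonged to Nlrc5, an activator of MHC class I genes, at 0.15 ± 0.06 (log2, SE) with an adjusted p of 0.328. Next came Naip2, a sensor of bacterial secretion proteins, at 0.31 ± 0.12 (log2, SE) with an adjusted p of 0.330 (limma); Naip genes are close copies of each other, so their probe sets may share signal. Of 10 other caspases and gasdermins, 3 differences lay above 0 and 7 below, with a median of -0.06. Gsdme, another pore-forming gasdermin, was at -0.36 ± 0.07 and Casp9, the initiator caspase of the mitochondrial pathway, at -0.15 ± 0.05 (log2, SE), with adjusted p of 0.102 and 0.283 (limma). Gsdme passed in 2 of the 9 alternatives that keep all arrays, and Casp9 in 0.

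Of 26 genes of the TNF receptor complex and caspase-8 regulation, 15 differences lay above 0 and 11 below, with a median of 0.02. Tnfaip3, which encodes the ubiquitin-editing enzyme A20 that restrains NF-kB and NLRP3 activation, was at -0.64 ± 0.10 (log2, SE) with an adjusted p of 0.0523 (limma). Its values did not overlap between the groups and were lower in IL-33, and it passed in 6 of the 9 alternatives that keep all arrays and in 0 of the 6 that leave one out. Ikbke, a kinase of the interferon response, was at 0.24 ± 0.06 (log2, SE) with an adjusted p of 0.155 (limma) and passed in 2 of those 9. At an unadjusted p under 0.05 the limma fit gave 3 of the 16 sensors, 2 of the 10 caspases and gasdermins, 6 of these 26 genes, 10 of the 18 regulators and cytokines and 6 of the 14 genes of the RHIM list, against 13.2% of all genes.

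Markers of cell types were set between the groups, list by list, since sums of different probe sets cannot be compared with each other and the table has no detection calls to show which markers are absent. The summed linear signal of 10 macrophage markers, among them Csf1r, Cd68 and Lyz2, lay between 33160 and 33909 in the IL-33 arrays and between 32360 and 33339 in the PBS arrays. Sums of the neutrophil, lymphocyte, fibroblast and endothelial and epithelial lists, of 5 or 6 genes each, lay between 111 and 277 in IL-33 and between 113 and 286 in PBS, and none of their genes passed. The summed signal of 6 mast cell and basophil markers was 213 to 227 in IL-33 and 159 to 176 in PBS. That sum does not describe the list, since 2 of its differences lay above 0, those of Hdc and Tpsb2, and 4 below. Of the 6 markers only Hdc, the histamine-forming enzyme gene, passed. It averaged 7.09 in IL-33 and 6.32 in PBS and rose by 0.77 (log2) with an adjusted p of 0.0183 (limma). Among macrophage markers 5 differences lay above 0 and 5 below. Fcgr1 rose by 0.49 (log2), with an adjusted p of 0.0448 (limma), and the other 9 did not pass. Of those below 0, Adgre1 differed most, by -0.29 (log2) with an adjusted p of 0.114 (limma). The part of these markers in the values of Mlkl or Zbp1 was not tested. In RNA of a whole culture, fewer expressing cells and less RNA per cell cannot be told apart.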

How the data were processed

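RNA was measured on 6 whole-transcript arrays, of which 3 carry the IL-33 label and 3 the PBS label. The deposited table holds 1 log2 value per probe set and array, made with RMA, per the submitters' processing notes. The sources used here do not give its version or settings. RMA equalises the arrays, which hides any shift common to most genes. Arrays give no count depth; their number limits the precision.

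Of 41345 probe sets, 23521 carried 1 gene symbol, 1814 carried several and named no gene, and 16010 were unnamed here. Entrez IDs of 23328 matched a RefSeq table (GRCm38.p6), and 0 symbols changed. Values were fitted with limma 3.58.1 under R 4.3.3, with lmFit and eBayes, no covariates and no filter, with Benjamini-Hochberg adjustment over 22180 genes and a threshold of 0.05. Intervals are 95% intervals from the moderated fit. On simulated data the fit recovered 62.45% of genes changed by 0.5 and 94.95% of those changed by 1 (log2). Unchanged genes made up 4.9% of the simulated calls. Changes under 0.5, such as those of the members, were not simulated. Figures used matplotlib 3.10.9 in Python 3.11.15.

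The members and lists were chosen with earlier results of these data known. Named were all members and, per list, up to 4 genes that passed with the largest change or up to 2 with the smallest p, and the 3 genes most correlated with the member of smallest p, with exceptions stated. The labels state no pairing, and the arrays were treated as unpaired. Deviations of same-numbered IL-33 and PBS arrays correlated at r = 0.040, 0.057 and 0.019, and those of different-numbered arrays at -0.075 to 0.035. There were 15 alternatives: leaving out dim genes at 2 limits, quantile normalization once more, centring each array on its 75th percentile, the mean of a gene's probe sets, the replicate block, a trended and robust prior variance, array weights, all probe sets (controls could not be told apart and stayed in), and leaving out each array.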

Additional observations from a re-analysis of the deposited data

How the results depend on the processing

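No measured member passed in 13 of the 15 alternatives, and Mlkl alone passed in the other 2, which gave a count of 1 with the dimmer 50% of genes left out and a count of 1 with a trended and robust prior variance. With those 2 settings 11 and 14 of the other pathway genes passed, against 3, and 760 and 1000 of all genes, against 131. Among genes at or above the 25th percentile 6 of 76 pathway genes and 296 of 16635 genes passed. With array weights 5 of 84 pathway genes and 193 of 22180 genes passed. Over all probe sets 0 of 84 pathway genes and 17 of 41345 features passed. With the replicate block 0 members, 1 pathway gene and 21 genes passed; the numbers are not known to pair the arrays. Leaving out 1 array gave 0 members, 0 to 1 pathway genes and 15 to 83 genes. Signs held in every alternative for Nlrp3, Casp1, Casp4, Gsdmd and Mlkl. They turned for Casp8 after a further quantile normalization (-0.00030), and without an array the range was -0.021 to 0.060 for Casp8, -0.0030 to 0.10 for Pycard and -0.061 to 0.0056 for Ripk3 (log2). Leaving out genes changes the number tested and also the prior variance, and leaving out an array lowers the sample size. These counts move with such changes by construction, and the cause was otherwise not tested. With the dimmer 50% of genes left out, the SE of Mlkl was 0.040 against 0.049 (log2) at the same difference. For the 8 members in the fit as reported, log2 differences under 0.33 could not have passed at their standard errors.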
